A study of Rattus norvegicus with 36 samples.

Results

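B cells and plasma cells were followed through 9 marker genes in the lungs of rats given crystalline silica. The genes were Cd79a, Cd79b, Ms4a1, Pax5, Irf4, Xbp1, Mzb1, Jchain and Tnfrsf17, and their probes were found as the non-control array probes that carry these names. The 9 genes were among 25597 gene names on the array, and their 12 probes were among 45598 probes. All 12 probes passed the filter on dim probes and all 9 genes were tested. In the scanner files (header build rn4) the probes used for the genes that differed most lay at chr14:21126502-21126561 for Jchain, chr18:28262790-28262849 for Mzb1, chr10:4187731-4187790 for Tnfrsf17 and chr17:40170510-40170569 for Irf4.

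The animals were female Sprague Dawley rats, 13 weeks of age when they were instilled. Exposed rats had received a single intratracheal instillation of DQ-12, a crystalline silica (quartz) standard, at 10 mg/rat in saline, and control rats had received the saline vehicle. RNA came from the accessory lobe of the lung 1, 30 or 180 days later (D1, D30 and D180), with 6 exposed and 6 vehicle rats at each time and 1 array per rat. DQ-12 had been ground before use to renew its surface, and it was given at a single dose.

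B cells carry an antigen receptor made of membrane immunoglobulin and the CD79 signalling pair, and they express CD20 (Ms4a1) and the lineage factor Pax5. When a B cell becomes a plasma cell it loses CD20 and Pax5 and uses Irf4 and Xbp1 to expand its secretory apparatus. The plasma cell depends on Tnfrsf17 (BCMA) for long survival. Jchain links the units of polymeric IgA and IgM before they are secreted, and Mzb1 is a chaperone of immunoglobulin assembly in the endoplasmic reticulum.

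Upstream sequences are shown for the 3 genes below because their signals differed between DQ-12 and vehicle rats at D180 and because RefSeq gave a promoter for them. Each run is the 250 bases before the start site, 5′ to 3′ on the strand of the gene, in the RefSeq assembly GRCr8. Capitals mark the letters TATAAA, and whether they act as a TATA box was not tested. The Jchain run is chr14:19822726-19822975 on the plus strand, the Tnfrsf17 run is chr10:4813773-4814022 on the minus strand and the Irf4 run is chr17:33948731-33948980 on the minus strand.
Jchain: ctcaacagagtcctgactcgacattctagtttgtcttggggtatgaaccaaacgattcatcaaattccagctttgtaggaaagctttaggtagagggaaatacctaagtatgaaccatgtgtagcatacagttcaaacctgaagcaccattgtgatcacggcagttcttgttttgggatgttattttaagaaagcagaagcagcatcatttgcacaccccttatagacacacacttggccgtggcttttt
Tnfrsf17: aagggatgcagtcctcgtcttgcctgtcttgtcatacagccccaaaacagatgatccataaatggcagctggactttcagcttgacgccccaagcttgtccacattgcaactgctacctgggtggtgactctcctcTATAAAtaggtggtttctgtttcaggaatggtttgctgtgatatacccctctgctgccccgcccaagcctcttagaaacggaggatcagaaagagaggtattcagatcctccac
Irf4: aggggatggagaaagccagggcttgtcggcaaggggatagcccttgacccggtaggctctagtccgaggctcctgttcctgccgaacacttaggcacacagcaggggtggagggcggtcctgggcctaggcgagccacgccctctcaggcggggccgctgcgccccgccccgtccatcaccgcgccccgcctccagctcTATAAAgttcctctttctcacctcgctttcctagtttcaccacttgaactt
Such a sequence was at hand for 5 members (the other 2 being Cd79a and Xbp1), and for Cd79b, Ms4a1, Pax5 and Mzb1 none was used here. The letters searched on both strands were the octamer ATGCAAAT, the XBP1-type element TGACGTGG and the TATA box TATAAA. The TATA box letters occurred in Irf4, from base -51 of the start site, and in Tnfrsf17, from base -114, and they occurred in 12.9% of the 33469 promoters of the same length. The octamer occurred in 1.56% of all promoters and the XBP1-type element in 0.52%, and neither was in the windows of the 5 members.

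Values are quantile-normalized log2 signals, on which a difference of 1 is a doubling, and differences are DQ-12 minus vehicle. A gene was called at a fold of at least 2 with a Benjamini-Hochberg adjusted p under 0.05 in limma over the 23940 genes tested. Between 51.4% and 75.5% of the probes of an array were well above background, arrays of the same group correlated at r = 0.956 to 0.989 across probes, and no spot was saturated. The 6 lung markers (Sftpc, Sftpb, Sftpa1, Ager, Cldn18 and Hopx) had a mean log2 signal of 16.72 to 17.27 on the 36 arrays and none was called at any time. Arrays lay on 19 slides scanned on 11 dates, and the groups were not spread evenly over them. Both groups shared a slide for 1 vehicle and 1 DQ-12 array at D180, and at D1 the only shared scan date held 1 vehicle array beside all 6 DQ-12 arrays.

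The plasma cell genes Jchain, Mzb1 and Tnfrsf17 and the transcription factor Irf4 were higher in DQ-12 rats at D180, by 1.46 to 2.27 on the log2 scale, and the receptor genes of B cells (Cd79a, Cd79b, Ms4a1) were not. At D1, 0 of the 9 members were called, where 3.07% of all genes were. At D30, 1 member was called higher, where 0.915% of all genes were called higher. At D180, 4 members were called higher, where 2.85% of all genes were called higher. The median difference of the 9 members was -0.29 at D1, 0.16 at D30 and 0.29 at D180, beside -0.01, -0.02 and -0.03 over all genes. At an unadjusted p under 0.05, limma gave 3 members at D1: Ms4a1 lower, and Pax5 and Irf4 higher. In RNA from a whole lobe, a change in the number of cells of a type and a change in the RNA per cell cannot be told apart.

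**Figure D1:**
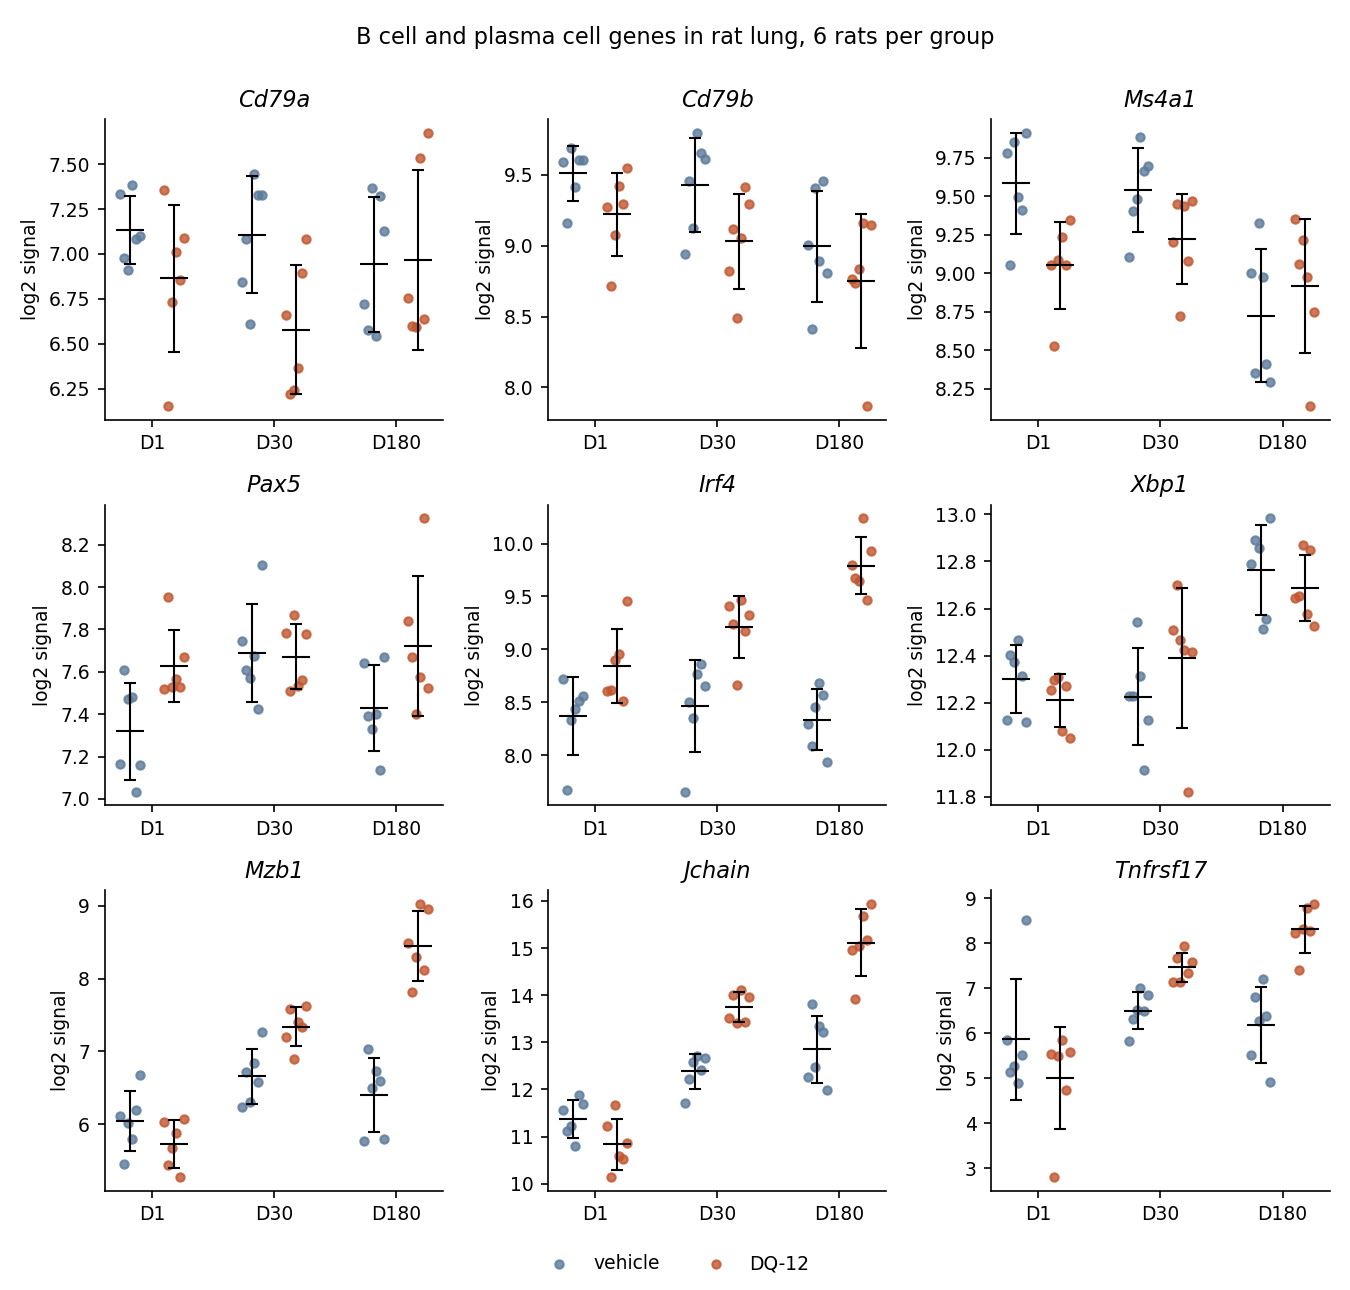
Log2 signal of each of the 9 genes (vertical axis) at D1, D30 and D180 (horizontal axis) in 6 vehicle and 6 DQ-12 rats per time; points are rats and bars are group means with 1 SD. At D180 every DQ-12 rat exceeded every vehicle rat for Irf4, Mzb1, Jchain and Tnfrsf17, and for the other 5 genes the groups overlapped at every time.

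Jchain, the joining chain of polymeric IgA and IgM, was the member called at both later times. At D1 its log2 signal ran from 10.79 through a median of 11.40 to 11.87 in vehicle rats and from 10.14 through 10.73 to 11.67 in DQ-12 rats, and the groups overlapped (difference -0.55, SE 0.30, adjusted p = 0.234). At D30 vehicle rats had 11.71, 12.49 and 12.70 (lowest, median and highest) and DQ-12 rats 13.41, 13.74 and 14.12, so that every exposed rat lay above every control. The D30 difference was 1.36 (95% interval 0.75 to 1.97, adjusted p = 0.00562).

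At D180 the same order held for Jchain with wider groups. Vehicle rats had 11.98, 12.85 and 13.82 and DQ-12 rats 13.91, 15.11 and 15.94. The difference was 2.27 (95% interval 1.66 to 2.88, adjusted p = 1.15e-06), a 4.81-fold signal. A separate, dimmer Jchain probe gave -0.24 at D1, 1.35 at D30 (adjusted p = 0.0208 over all probes) and 2.51 at D180 (adjusted p = 1.86e-06), so the 2 probes of the gene had the same direction at each time.

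Mzb1, the chaperone of immunoglobulin assembly, was called at D180. Its D180 signal was 5.77, 6.54 and 7.03 in vehicle rats and 7.81, 8.39 and 9.03 in DQ-12 rats (lowest, median, highest), without overlap. The difference was 2.05 (95% interval 1.58 to 2.52, adjusted p = 6.2e-08). At D30 vehicle rats had 6.24, 6.65 and 7.26 and DQ-12 rats 6.90, 7.37 and 7.62. Then 4 of 6 DQ-12 rats exceeded all vehicle rats and the difference was 0.68 (adjusted p = 0.0905). At D1 the difference was -0.31 (adjusted p = 0.395), with 5.45 to 6.68 in vehicle rats and 5.28 to 6.07 in DQ-12 rats.

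Tnfrsf17, the BCMA receptor through which plasma cells take up survival signals, was also called at D180. Vehicle rats then had 4.92, 6.33 and 7.20 and DQ-12 rats 7.41, 8.29 and 8.88, without overlap, and the difference was 2.13 (95% interval 1.16 to 3.10, adjusted p = 0.00145). At D30 vehicle rats had 5.83, 6.51 and 7.02 and DQ-12 rats 7.14, 7.46 and 7.95. Those D30 groups did not overlap either (exact permutation test, two-sided, p = 0.00216, the smallest that 6 against 6 rats allow), whereas the limma difference of 0.97 had an adjusted p of 0.320. At D1 the gene was unevenly measured: 1 vehicle rat stood at 8.51 where the group's median was 5.40, and 1 DQ-12 rat at 2.81 where the median was 5.52. The D1 difference was -0.86 (adjusted p = 0.236) and 0.11 without those 2 rats, an alternative added after seeing the data.

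Irf4, a factor that acts in plasma cell differentiation and also in other activated lymphoid and myeloid cells, differed from vehicle already at D30 by the adjusted p alone. The D30 signal was 7.66, 8.58 and 8.87 in vehicle rats and 8.66, 9.28 and 9.47 in DQ-12 rats, with 5 of 6 exposed rats above all controls (difference 0.75, adjusted p = 0.0211, a threshold that 3.98% of all genes passed). At D180 it was 7.93, 8.38 and 8.68 in vehicle rats and 9.47, 9.73 and 10.24 in DQ-12 rats, without overlap. The D180 difference was 1.46 (95% interval 1.06 to 1.85, adjusted p = 1.2e-06). A separate Irf4 probe was well above background on 0 or 1 vehicle and 1 to 3 DQ-12 arrays of a time, and it was not called. At D1 the difference was 0.47 (adjusted p = 0.0969), and 3 of 6 exposed rats exceeded every control.

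Xbp1, the factor that drives the secretory programme of plasma cells and is also used by other secretory cells, did not follow these 4 genes. Its signal lay between 11.82 and 12.98 on all arrays, and the groups overlapped at each time. The differences were -0.09 at D1, 0.16 at D30 and -0.08 at D180 (95% interval -0.31 to 0.16, adjusted p = 0.739). Groups without overlap, exposed above control, were thus found for 2 members at D30, where 1.81% of all genes had them, and for 4 at D180, where 3.82% had them.

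**Figure D2:**
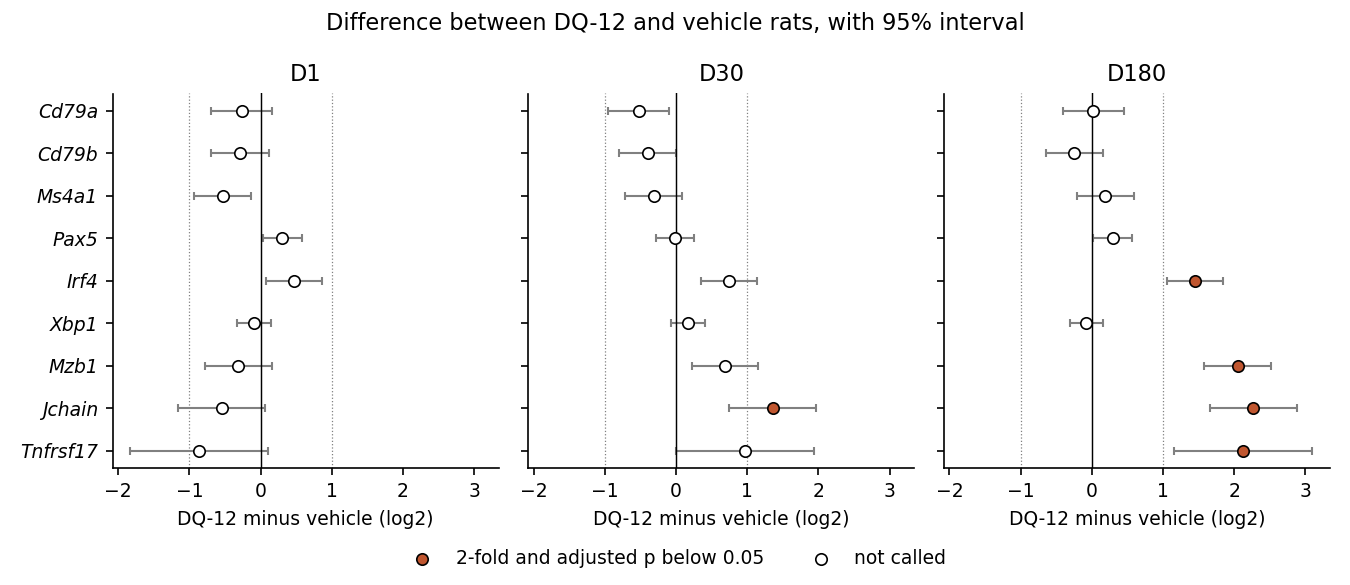
Difference between DQ-12 and vehicle rats (horizontal axis, log2) for the 9 genes (vertical axis) at D1, D30 and D180, with bars for the 95% interval of the limma fit and the called genes marked. Jchain was called at D30 with 1.36, and at D180 the called values were 1.46 (Irf4), 2.05 (Mzb1), 2.13 (Tnfrsf17) and 2.27 (Jchain).

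The B cell receptor genes stayed near the vehicle level or below it. Cd79a, the alpha chain of the signalling pair, had 6.54, 6.93 and 7.37 in vehicle rats at D180 and 6.59, 6.69 and 7.67 in DQ-12 rats, a difference of 0.02 with a 95% interval of -0.41 to 0.45. At D30 vehicle rats had 6.61, 7.20 and 7.45 and DQ-12 rats 6.22, 6.51 and 7.08, and 3 of 6 exposed rats were below all controls. That difference of -0.53 had an exact permutation p of 0.0346 (two-sided) and an adjusted limma p of 0.181, so it was not called.

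Cd79b, the beta chain of that pair, was lower in the mean of the exposed rats at each time without passing the test. At D180 it was 8.42, 8.95 and 9.45 in vehicle rats and 7.87, 8.80 and 9.16 in DQ-12 rats, a difference of -0.25 (95% interval -0.65 to 0.16). The differences at D1 and D30 were -0.29 (adjusted p = 0.357) and -0.40 (adjusted p = 0.325).

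Ms4a1, which encodes the CD20 surface protein, was measured by 2 probes that differed in size of effect at D1. On the probe used for the gene, D1 vehicle rats had 9.05, 9.64 and 9.91 and DQ-12 rats 8.53, 9.07 and 9.35 (difference -0.53, adjusted p = 0.0611). On the dimmer probe all 6 DQ-12 rats (4.62 to 5.99) lay below all 6 vehicle rats (6.14 to 8.59), and its difference of -1.31 was called in the fit of every probe (adjusted p = 0.00455), where 2.78% of all probes were called and 4.55% had groups apart in this way. Neither probe was called later, with 0.19 (95% interval -0.21 to 0.59) on the first and -0.02 on the dimmer at D180.

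Pax5, the factor that holds B cell identity, was not called at any time. Its signal ran from 7.03 to 7.61 in vehicle rats and from 7.52 to 7.95 in DQ-12 rats at D1, where 2 of 6 exposed rats exceeded all controls (difference 0.31, adjusted p = 0.116). The D30 difference was -0.02 (adjusted p = 0.988). The D180 difference was 0.29 (95% interval 0.02 to 0.57, adjusted p = 0.138). The signals of Pax5 and Cd79b varied in opposite directions over the 36 arrays (r = -0.52, and -0.57 within groups).

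Whether the DQ-12 difference changed between times was tested in the same limma fit. From D1 to D180 it grew for Jchain by 2.81 (adjusted p = 0.000126), for Mzb1 by 2.36 (adjusted p = 3.57e-05) and for Tnfrsf17 by 2.99 (adjusted p = 0.00764), 3 called members where 1.55% of all genes were called. The Tnfrsf17 value includes its D1 difference of -0.86, which was 0.11 without the 2 rats far apart at D1. Leaving out 1 rat at a time gave 2.46 to 3.19 for Tnfrsf17. For Irf4 the change was 0.99 (adjusted p = 0.0308), below 2-fold, and 4.54% of all genes passed the adjusted p in this contrast. From D1 to D30, Jchain was the called member (1.90, adjusted p = 0.0119), where 0.944% of all genes were called. From D30 to D180, 0 members were called in limma, where 0.134% of all genes were. Of the 3 members with an unadjusted p under 0.05 in that contrast, Mzb1 had 1.37 (adjusted p = 0.0585), Jchain 0.91 (adjusted p = 0.399) and Irf4 0.71 (adjusted p = 0.290). Calls of Mzb1 in this contrast appeared when any of 7 rats was left out: vehicle D30 replicate 3, DQ-12 D30 replicate 5, vehicle D180 replicates 2 and 4, and DQ-12 D180 replicates 2, 3 and 5, with 1.37 to 1.49. These contrasts share the rats of a time with the comparisons above.

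In vehicle rats alone, Jchain rose with the time since instillation. The vehicle mean was 11.38 at D1, 12.38 at D30 and 12.85 at D180, and the differences were 1.00 from D1 to D30 (adjusted p = 0.0400) and 1.47 from D1 to D180 (adjusted p = 0.00188), where 2.75% and 1.74% of all genes were called. The first of these calls was lost, at 0.88 to 1.03, when vehicle D1 replicate 2, 3 or 4 or vehicle D30 replicate 2, 3, 4, 5 or 6 was left out. By the adjusted p alone, Ms4a1 was lower in vehicle rats at D180 than at D1 (-0.86, adjusted p = 0.00488) and Xbp1 higher (0.46, adjusted p = 0.00846), where 10.6% of all genes passed. From D30 to D180, 0 members were called by limma in vehicle rats, where 2.71% of all genes were, and 3 had an unadjusted p under 0.05: Ms4a1 (-0.81, adjusted p = 0.00658), Cd79b (-0.43, adjusted p = 0.157) and Xbp1 (0.54, adjusted p = 0.00229). The times were scanned on different dates, so age, time since instillation and scan date cannot be told apart in these vehicle contrasts.

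The 4 raised genes kept their direction among arrays scanned on the same date. At D180 a date with 3 arrays of each group gave 1.94 for Jchain, 1.87 for Mzb1, 1.65 for Tnfrsf17 and 1.23 for Irf4, and a date with 1 array of each gave 1.35, 1.08, 1.45 and 1.38. At D30 a date with 4 vehicle arrays and 1 DQ-12 array gave 1.19 for Jchain and a date with 2 and 5 gave 1.16. With scan date as a block, Jchain (1.80), Mzb1 (1.67) and Irf4 (1.27) were called at D180 and Tnfrsf17 (1.60, adjusted p = 0.0577) was not. With slide as a block none of the 4 was called at D180: Jchain had 1.62 (adjusted p = 0.184), Mzb1 1.76 (adjusted p = 0.0729), Irf4 1.12 (adjusted p = 0.266) and Tnfrsf17 1.03 (adjusted p = 0.842). In that fit the D180 difference rests on the 1 slide with 1 array of each group. Jchain at D30 was called with slide as a block (1.15, adjusted p = 0.0395) and with scan date as a block (1.17, adjusted p = 0.0251).

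**Figure D3:**
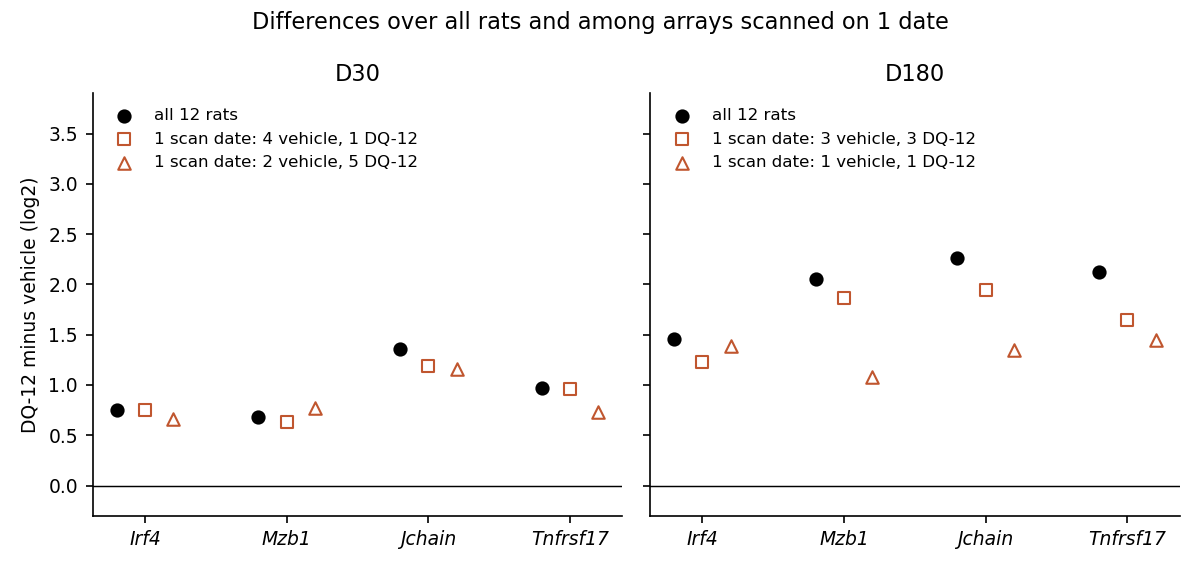
Difference between DQ-12 and vehicle rats (vertical axis, log2) of Irf4, Mzb1, Jchain and Tnfrsf17 (horizontal axis) at D30 and D180, over all 12 rats of a time (filled) and among arrays scanned on a shared date (open), with the number of arrays given in the key. All values lay above 0, and at D180 the within-date values of Jchain were 1.94 and 1.35 where all rats gave 2.27.

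Over the 36 arrays some of the members varied together, given here as a description of arrays that share groups and scan dates. Mzb1 and Jchain correlated at r = 0.94, Mzb1 and Tnfrsf17 at 0.90, Jchain and Tnfrsf17 at 0.87 and Irf4 and Mzb1 at 0.78. Within groups, after the group means were taken out, the values were 0.77, 0.73, 0.68 and 0.62. Cd79b correlated with Ms4a1 at 0.74 and with Cd79a at 0.63, and with Jchain at -0.44. Within groups, the first 2 values were 0.68 and 0.70, and that of Cd79b with Jchain turned to 0.20. Cd79b with Irf4 had 0.68 within groups where it was -0.15 over all arrays. Cd79a with Ms4a1 had 0.26 (0.23 within groups). Pax5 was negative with Cd79a (-0.29), Cd79b (-0.52) and Ms4a1 (-0.29), and within groups the values were -0.25, -0.57 and -0.40.

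The genes most like the members over the 36 arrays were mostly of the same lineages. The B cell set averaged here includes Pax5, which correlated negatively with its other genes. For the mean standardized signal of Cd79a, Cd79b, Ms4a1 and Pax5, 4 of the 5 highest correlations were with Fcmr (the receptor for IgM, r = 0.78), Pde6h (a phosphodiesterase subunit, 0.72), Cxcr5 (the chemokine receptor that guides B cells to follicles, 0.71) and Evl (an actin regulator, 0.67). For that of Mzb1, Jchain and Tnfrsf17, the 5 highest were with RGD1563231 (described as like an immunoglobulin kappa chain, 0.94), RGD1565617 (described as like an immunoglobulin light chain, 0.93), LOC500180 (0.93), LOC103692721 (an uncharacterized RNA, 0.92) and Igkv28 (0.91).

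Immunoglobulin transcripts, the product for which plasma cells are equipped, showed a course like that of Jchain. A search of probe names and descriptions found 43 probes, of which 42 passed the filter, and 3 of those are for Iglon5, a neural adhesion gene and no immunoglobulin, which left 39. At D180, 31 of the 39 were called higher and 0 lower, where 2.56% of all probes were called higher. At D30, 8 were called higher and 0 lower, where 0.701% of all probes were called higher. At D1, 0 were called higher and 2 lower, where 2.78% of all probes were called in either direction. The median difference was -0.28 at D1, 0.89 at D30 and 2.42 at D180, beside 0.00, -0.01 and -0.03 over all probes. The filter took the arrays of all groups together, so a dim probe could pass it mainly through DQ-12 arrays. A heavy chain probe called at D180 was well above background on 0 vehicle and 1 DQ-12 array, and another on 0 and 4. The D180 count thus includes probes not well above background in any vehicle rat.

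By chain, 15 of 21 heavy chain probes, 13 of 14 kappa probes and 3 of 4 lambda probes were called higher at D180, with medians of 2.33, 2.66 and 2.55. The probe for Ighg1, the constant region of IgG1, had 7.09, 8.74 and 9.99 in vehicle rats and 10.08, 11.69 and 12.85 in DQ-12 rats at D180, a difference of 3.19 (adjusted p = 0.00121). The same probe was among the 2 called lower at D1, by -2.72 (adjusted p = 0.00690), when it was well above background on 5 vehicle and 2 DQ-12 arrays. The probes named Igha and Igh-6 (older names for the heavy chains of IgA and IgM) overlap each other on the array's map, at chr6:138452801-138452857 and chr6:138452828-138452887, and the first holds the variable region letters described below, so their names were not read as classes of antibody. Igha had 3.26, 4.74 and 5.97 in vehicle rats and 4.67, 7.35 and 7.76 in DQ-12 rats at D180, with 5 of 6 exposed rats above all controls (2.33, adjusted p = 0.0151).

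The Igh-6 probe differed by 2.54 at D180 (adjusted p = 6.8e-07), with 5.26, 6.24 and 6.57 in vehicle rats and 7.71, 8.54 and 9.74 in DQ-12 rats. The Ig lambda-2 constant region probe differed by 2.26 (adjusted p = 3.0e-06), with 11.80, 12.23 and 12.72 in vehicle rats and 13.09, 14.25 and 15.99 in DQ-12 rats. For both probes all exposed rats lay above all controls. Of the 39 probes, 19 had such non-overlapping groups at D180, where 3.29% of all probes did.

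The sequences of 4 variable region probes are shown to let a reader see what these probes capture. Immunoglobulin variable segments end in a conserved tyrosine and cysteine just before the hypervariable loop that differs between B cell clones, and the letters TATTNCTGT, searched on both strands and shown in capitals, encode that stretch. Each probe is a 60-base oligonucleotide of the array, 5′ to 3′, and the sequences were read from the scanner files. In the positions of those files, whose header names the build rn4 although the transcripts they list are newer, the probe of RGD1563231 lies at chr4:103097654-103097713 (plus strand), that of Igkv28 at chr4:102453595-102453654, that of LOC690813 at chr4:102974818-102974877 and the heavy chain variable probe at chr6:142436822-142436881 (all 3 on the minus strand).
RGD1563231: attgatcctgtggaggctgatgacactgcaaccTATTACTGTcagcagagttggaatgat
Igkv28: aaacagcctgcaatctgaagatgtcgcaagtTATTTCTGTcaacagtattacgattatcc
LOC690813: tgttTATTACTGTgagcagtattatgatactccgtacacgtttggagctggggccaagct
Heavy chain variable probe: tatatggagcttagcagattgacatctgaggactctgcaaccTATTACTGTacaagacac
These letters were in 14 of the 39 immunoglobulin probes (35.9%) and in 0.609% of the 42200 probes tested. The D180 differences of the 4 probes were 2.99 for RGD1563231 (adjusted p = 2.4e-07), 2.89 for Igkv28 (adjusted p = 8.61e-05), 2.57 for LOC690813 (adjusted p = 0.000106) and 3.09 for the heavy chain variable probe (adjusted p = 7.86e-06). On that LOC690813 probe 2 DQ-12 rats exceeded all vehicle rats. Other probes named LOC690813 gave 2.40 (adjusted p = 3.86e-05) and 0.35 (adjusted p = 0.818, well above background on 1 vehicle and 2 DQ-12 arrays). A lambda probe with these letters was not called (0.82, adjusted p = 0.369). Variable segments are a multigene family with near-identical members, so the signal of a probe may come from several genes.

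**Figure D4:**
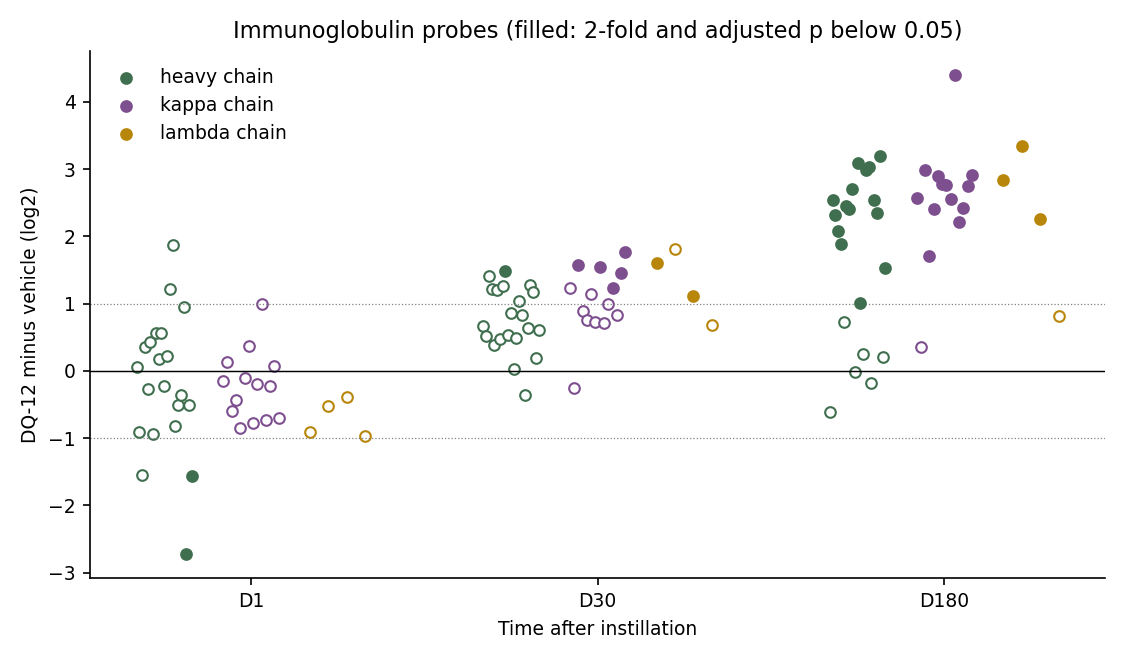
Difference between DQ-12 and vehicle rats (vertical axis, log2) of the 39 immunoglobulin probes at D1, D30 and D180 (horizontal axis), coloured by chain; filled points were called. The medians were -0.28, 0.89 and 2.42, and 31 probes were called higher at D180.

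Among arrays scanned on the same date, the median immunoglobulin difference was 2.06 (36 of 39 probes higher) and 1.53 (32 of 38 probes higher) at D180, and 1.41 and 0.98 at D30. With slide as a block, 1 immunoglobulin probe was called at D180 and 3 at D30, and with scan date as a block 24 and 4. With the replicate number as a block 30 and 4 were called. The D30 count was 3 when vehicle D30 replicate 1 or DQ-12 D30 replicate 4 was left out, and 5 when vehicle D30 replicate 5 or DQ-12 D30 replicate 2 was.

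Other genes of the B lineage were read from lists. Of 18 tested genes of B cell surface and receptor signalling, Btk, a kinase used by B cells and myeloid cells, was the called gene at D180 (10.28 to 11.31 in vehicle rats, 11.60 to 12.13 in DQ-12 rats; 1.00, adjusted p = 0.000142), a value at the 2-fold limit that fell below it, to 0.91 to 0.99, without vehicle D180 replicate 2, 5 or 6 or DQ-12 D180 replicate 1 or 2. The Btk difference was also below 2-fold, at 0.88 to 0.99, with normexp background correction, the median signal, the median over probes, array weights, slide or scan date as a random block and scan date as a fixed block, and it was 0.54 (adjusted p = 0.699) with slide as a fixed block. The median of the list at D180 was 0.17. Of 8 B cell transcription factors none was called at any time. Pou2af1, the octamer co-activator, had 9.63 to 10.43 in vehicle rats and 10.05 to 10.98 in DQ-12 rats at D180 (0.53, adjusted p = 0.0240). Bach2, a repressor that holds back plasma cell differentiation and is named here after its values were seen, had 9.76 to 10.32 in vehicle rats and 8.61 to 9.48 in DQ-12 rats, without overlap (-0.86, adjusted p = 2.49e-05), also below 2-fold. These were the factors of the list that passed the adjusted p at D180, 1 higher and 1 lower, and the median of the list was -0.059.

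Of 6 germinal centre genes, Gcsam was called at D180 (1.23, adjusted p = 6.34e-07), with 8.31 to 8.76 in vehicle rats and 9.50 to 10.21 in DQ-12 rats. The others of that list, Bcl6, S1pr2, Mef2b and Rgs13 among them, were not called. At D180, 3 of the 6 germinal centre genes were raised, and the median of the list was 0.10 (lowest -0.71). Of 4 tested precursor B cell genes, 2 were called at D180: Igll1, part of the surrogate light chain (1.81, adjusted p = 1.5e-05; 5.51 to 7.05 against 7.45 to 8.85), and Dntt, the terminal transferase (1.78, adjusted p = 0.00151), which was well above background on 3 vehicle and 5 DQ-12 arrays. Dntt fell below 2-fold with normexp (0.53) and with the median signal (0.74), and with slide as a block Dntt (1.26, adjusted p = 0.673), Igll1 (1.90, adjusted p = 0.122) and Gcsam (0.96, adjusted p = 0.230) were not called. The median of the 4 precursor genes at D180 was 1.16. Vpreb1 and Rag1 were not called. At D1 and D30 none of the precursor genes was called.

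Of 10 tested plasma cell identity genes, Derl3, a component of endoplasmic reticulum degradation, was called at all 3 times with 1.52, 1.35 and 1.06, and Ccr10, the receptor that brings IgA plasma cells to mucosa, at D180 with 1.07 (adjusted p = 0.00435). Derl3 rests on its brightest probe: with the median over its probes the values were 0.45, 0.26 and 0.34, and none was called, as was also so with slide or scan date as a fixed block. At D180 its call (adjusted p = 0.0461) was lost, at 0.96 to 1.09, in 19 of the 36 fits that left out a rat, 10 of them with a D180 rat. Ccr10 was below 2-fold, at 0.42 to 0.95, with other background corrections, with percentile scaling, in the deposited values and with array weights, and also without vehicle D180 replicate 6 or DQ-12 D180 replicate 4. Prdm1, the factor that ends the B cell programme, differed by -0.36 at D180 (adjusted p = 0.139), with 7.72 to 8.33 in vehicle rats and 7.16 to 8.15 in DQ-12 rats. Sdc1, which encodes the plasma cell surface protein CD138 and is also an epithelial gene, differed by 0.09 (adjusted p = 0.506).

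The secretory apparatus of the cell was represented by 19 genes of the endoplasmic reticulum and the unfolded protein response. At D1, Sdf2l1 (1.32, adjusted p = 4.93e-05) and Pdia6 (1.09, adjusted p = 4.36e-07) were called higher, at the time when none of the 9 members was called. Sdf2l1 was not called with slide (1.47, adjusted p = 0.119) or scan date (1.40, adjusted p = 0.117) as a fixed block, and Pdia6 fell just below 2-fold without DQ-12 D1 replicate 2. At D30 and D180 none of the 19 was called, while 3 and 4 passed the adjusted p alone, all higher, where 3.98% and 16.8% of all genes passed. The medians were 0.39, 0.17 and 0.31.

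Among 11 survival factors, attractants and helper cytokines, Tnfsf13 (APRIL), a ligand of the Tnfrsf17 receptor, had 10.88 to 11.86 in vehicle rats and 11.70 to 12.34 in DQ-12 rats at D180 (0.67, adjusted p = 0.000329), and 11.02 to 11.45 and 11.46 to 12.12 at D30 (0.57, adjusted p = 0.00830), both below 2-fold. Tnfsf13b (BAFF), the other ligand of this receptor family, differed by 0.08 at D180 (adjusted p = 0.785). Cxcl13, which attracts B cells to follicles, differed by 0.68 (adjusted p = 0.0948), with 5.95 to 8.10 in vehicle rats and 6.64 to 8.05 in DQ-12 rats. Il5 was called lower at D180 (-1.74, adjusted p = 0.0213, well above background on 5 vehicle and 3 DQ-12 arrays), a call that was lost, at -1.40 to -1.54, without vehicle D180 replicate 1 or 5 or DQ-12 D180 replicate 4 or 5. The Il5 difference was -0.55 with normexp, -0.76 with the median signal and 0.12 with slide as a block, and it was also not called with D180 alone, with scan date as a fixed block, with slide as a random block or with array weights. Il21 was called at D30, but its probe was well above background on 0 vehicle and 1 DQ-12 array, so no fold is given. Pigr and Ccl28, which serve IgA transport and homing, were not called.

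Markers of other cells that may hold some of these transcripts were read beside the members. Of 10 T cell markers none was called at any time, and their mean level at D180 was 8.34 to 8.88 in vehicle rats and 8.56 to 9.39 in DQ-12 rats. All 10 were raised at D180, with a median difference of 0.29 beside -0.03 over all genes. By the adjusted p alone 1 of them was higher, where 1870 of 23940 genes were. Of 5 tested plasmacytoid dendritic cell markers none was called, with mean levels of 8.75 to 9.42 and 8.57 to 9.21. Of 6 macrophage markers, 1 was called higher at D30, where 219 of 23940 genes were. At D180, 2 were called higher, Cd68 (1.55) and Itgam (2.19), where 683 of 23940 genes were. The list's mean level was 9.30 to 9.79 in vehicle rats and 9.87 to 10.31 in DQ-12 rats. The median difference of this list was 0.09, with 4 of the 6 raised and 1 passing the adjusted p in the lower direction. Of 5 neutrophil markers, 1 was called higher at D1 and 2 at D30, where 484 and 219 of 23940 genes were. At D180, 4 were called higher, where 683 of 23940 genes were. S100a9 (2.57) differed the most, and mean levels at D180 were 8.22 to 9.09 and 10.04 to 10.86. With slide as a block, where the D180 difference rests on 1 array of each group, the calls of Itgam (1.90) and S100a9 (1.96) were lost. Those of the neutrophil markers Cxcr2 (1.20), Csf3r (1.04) and S100a8 (0.49) were lost as well. Of 6 dendritic cell markers, 1 was called lower at D1 and 1 higher at D30, where 252 and 219 of 23940 genes were. At D180, Clec9a was called higher (1.31) and Cd209e lower (at least 1.96-fold), with mean levels of 6.02 to 6.55 and 6.09 to 6.26. Clec9a fell below 2-fold with normexp (0.92) and with the median over probes (0.73) and was not called with slide as a block (1.49, adjusted p = 0.323), and Cd209e was at -0.56 with normexp, -0.78 with the median signal and -0.86 with slide as a block. Of 5 airway secretory markers, Muc5b was called at D1 (1.17, well above background on 2 vehicle and 5 DQ-12 arrays), and none at D180, where mean levels were 9.36 to 10.14 and 8.91 to 9.81. The Muc5b call was lost, at 0.21 to 1.17, with normexp, the median signal, percentile scaling, the deposited values, D1 alone, array weights and slide or scan date as a fixed or random block, and without vehicle or DQ-12 D1 replicate 2 (0.85 and 1.05). The part of these cells in the signals of Irf4, Btk and the other shared genes was not tested.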

How the data were processed

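Lung RNA was labelled with Cy3 and hybridised to Agilent rat arrays by the authors, 1 array per rat, and image analysis used Agilent Feature Extraction 12.0.1.1 per the submitters' processing notes. The deposited scanner files hold intensity values per spot, background-corrected within the array. A deposited value table holds log2 values whose processing it does not state. Set against the scanner values (1641060 values), it matched the log2 processed signal minus the 75th percentile of each array, centred on each probe's median (r = 0.999973, median absolute difference 0.00177). Its column medians ran from -0.15 to 0.23.

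Here the processed intensities were converted to log2 and averaged over the spots of a probe, without controls (58717 spots) and without spots flagged as outliers. Probes above the 95th percentile of the array's 308 negative controls on at least 6 arrays were kept (42200) and then quantile-normalized. The probe with the highest mean stood for a gene (23940 genes). All 36 arrays were fitted with 6 group means in limma 3.58.1 (R 4.3.3, with statmod 1.5.0 and version 1.17.8 of data.table), and p-values were adjusted over all genes by Benjamini-Hochberg within a comparison. Calls needed a 2-fold change and an adjusted p under 0.05. Single members were also compared by a two-sided exact permutation test over the 924 splits of 6 and 6 rats. The authors' methods mention a batch correction without naming its variable, so none was in the model, and slide and scan date were tried as blocks. The other alternatives were normexp background correction with an offset of 50, the median signal, percentile scaling, the deposited values, other probe filters and probe summaries, each time alone, the replicate number as a block, array weights, other thresholds and leaving out each rat. The pipeline was tested on simulated data. The number of arrays limits the precision, and samples are separate rats.

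The members and gene lists were chosen with earlier results of these data known. The text names every member, and of the lists the genes called at any time, at most the 4 largest per list and time, with Tnfsf13b, Tnfsf13, Cxcl13, Prdm1, Sdc1 and Pou2af1 whatever their change. Genes most alike are the 5 with the highest Pearson r to the mean standardized signal of a set of members. Results for some listed genes are not reported here. Fcrl5, Fam46c, Clec4c and Rag2 of the lists were not tested. Promoter sequences and RefSeq symbols came from RefSeq (GRCr8), which listed the symbols of all 9 members.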

Additional observations from a re-analysis of the deposited data

Results flagged for a closer look

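In 8 of the 54 groups of 6 rats examined (9 genes in 6 groups), the highest or lowest rat lay far from the others by Dixon's criterion, which chance alone meets in about 1 of 20 groups. Tnfrsf17 met it in both D1 groups, with vehicle replicate 6 at 8.51 and DQ-12 replicate 2 at 2.81. DQ-12 D1 replicate 2 was also the lowest rat of its group for Ms4a1 (8.53) and the highest for Pax5 (7.95). Vehicle D1 replicate 2 was low for Irf4 (7.67), and DQ-12 D30 replicate 3 was low for that gene (8.66). DQ-12 D30 replicate 5 was low for Xbp1 (11.8) and DQ-12 D180 replicate 5 for Cd79b (7.87).

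For 4 members the difference between DQ-12 and vehicle rats itself differed between times in limma. From D1 to D180 it changed by 2.81 for Jchain, 2.36 for Mzb1, 2.99 for Tnfrsf17 and 0.99 for Irf4, and from D1 to D30 by 1.90 for Jchain. The Tnfrsf17 value includes a D1 difference of -0.86 that was 0.11 without the 2 outlying D1 rats. Every exposed rat exceeded every control at D180 for these 4 genes and at D30 for Jchain, and at D1 the groups overlapped.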

How the results depend on the processing

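The count of called members stayed at 0 (D1), 1 (D30) and 4 (D180) without any of the 36 rats, and the same counts held under the normalization, background, filter, probe, weight and random-block alternatives. Exceptions were slide as a fixed block, with 0 called at D180, and a 1.5-fold threshold or the adjusted p alone, with 2 called at D30. Scan date as a fixed block gave 3 at D180, where 872 of 23882 genes were called, beside 868 of 23940 in the main fit. Of 23940 genes at D30, 252 were called in the main fit, 613 at 1.5-fold and 953 by the adjusted p alone. The slide count at D180 was not set against all genes, because only 1 slide held both groups then. Calls of the change in the DQ-12 difference moved as follows. From D1 to D30 (1 member) they came to 2 with 75th percentile scaling and to 0 with slide or scan date as a block. From D1 to D180 (3 members) they came to 0 with slide and to 1 with the scan date as a block, and from D30 to D180 (0 members) to 1 with normexp. The vehicle call from D1 to D30 (1 member) came to 0 with normexp. Without 1 rat these counts ranged from 1 to 1, 3 to 4, 0 to 1 and 0 to 1, and the vehicle counts from D30 to D180 and D1 to D180 from 0 to 0 and 1 to 1. The cause of these moves was not tested. Both groups shared 1 slide at D180 and 1 scan date at D1.

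Immunoglobulin probes called at D1 (2) came to 0 with normexp, slide or scan date as a fixed or random block, or without the 2 D1 rats far apart in Tnfrsf17, and to 1 with the median signal. At D30 (8) they came to 3 with slide and to 4 with the scan date as a fixed block, and at D180 (31) to 1 with slide. Without 1 rat they ranged from 1 to 3, 3 to 8 and 27 to 31. Among values that were not called, signs turned for Pax5 at D30 (0.021 with the median signal, 0.069 and 0.024 with slide as a fixed and random block, -0.070 to 0.066 without 1 rat), Cd79a at D180 (-0.020 with percentile scaling, -0.0098 in the deposited values, -0.16 and -0.010 with scan date as a fixed and random block, -0.12 to 0.11 without 1 rat), Xbp1 (0.13 at D180 and -0.036 at D30 with slide, -0.060 at D30 with scan date), Tnfsf13b at D180 (-0.081 with scan date) and Tnfrsf17 at D1 (0.11 without the 2 rats). Il5, called lower at D180, had 0.12 with slide as a block.

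What the replicate number stands for is not stated in the labels. Over 18 pairs of same-numbered rats of a time, deviations correlated at -0.13 to 0.22, and 6 pairs exceeded 0.1. These values do not settle whether such rats were paired. With the replicate block, members called stayed at 0, 1 and 4, Jchain at D180 had 2.27 (adjusted p = 0.000128), and immunoglobulin probes came to 1 at D1, 4 at D30 and 30 at D180. Vehicle contrasts over time could not be estimated with slide, scan date or replicate as a fixed block.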
